A study of Mus musculus with 10 samples.

Results

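Nefm, Nefl, Nefh, Ina, Uchl1, Gap43, Nrn1, Stmn2 and Tubb3 are genes best known from neurons, and their transcripts were measured here in mouse thyroid carcinomas. They are 9 of the 19938 genes that had a probe set with 1 gene symbol on the array. Each was found by its exact platform symbol, and where a gene had several probe sets (Ina, with 2) the one with the highest mean over the 10 arrays was kept. The genes were selected on their measured intensities in the same ATC and PTC tumours, so their differences between tumour types are a description: the calls of the fit across all genes are counted once, and no p-value of a member is given or used as support.

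The tumours were 5 papillary thyroid carcinomas (PTC), of genotype TPOCreER; BrafV600E, and 5 anaplastic thyroid carcinomas (ATC), of genotype TPOCreER; BrafV600E; p53 -/-. All 10 came from mice of mixed C57BL/6 and 129SvJae background. In TPOCreER the promoter of thyroid peroxidase drives a Cre that tamoxifen activates, which limits recombination to thyroid follicular cells, and the Braf allele it switches on encodes the V600E kinase. Both tumour types therefore share the Braf mutation, and loss of p53 and anaplastic histology changed together. The labels number the tumours as biological replicates without saying whether each came from a different mouse, and give no ages or tamoxifen times. The level of the deleted gene is not analysed here.

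Neurofilaments are the intermediate filaments of axons. They are built from a light (Nefl), a medium (Nefm) and a heavy (Nefh) subunit together with alpha-internexin (Ina), and the light subunit forms the core on which the medium and heavy subunits assemble. Growing neurites carry a further set of proteins: Gap43 at the inner membrane of the growth cone, neuritin (Nrn1) anchored at the cell surface, the microtubule-destabilising stathmin Stmn2, the neuronal beta-tubulin Tubb3, and the abundant neuronal deubiquitinating enzyme Uchl1, also known as PGP9.5. In non-neuronal cells many neuronal genes are held silent by the repressor Rest, which binds an element called RE1.

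All values are log2 intensities of a probe set, and differences are ATC minus PTC on that scale, so that 1 unit is a doubling. They compare tumours for 1 probe set at a time; intensities of different genes were not set against each other. In bulk tumour RNA, fewer cells of a type and less RNA per cell cannot be told apart. The array medians ran from 7.25 to 7.34, and ATC replicate 5 had the lowest array weight (0.38, against 0.56 to 2.49 for the others). The number of arrays, 5 per group, limits the precision. As a check of the labelled tissue, thyroglobulin (Tg), the hormone precursor of follicular cells, was at 11.28 to 12.88 in the PTC tumours and at 7.17, 12.00, 6.84, 11.48 and 10.23 in ATC replicates 1 to 5.

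The 9 genes fell into distinct patterns. Nefm, Nefl, Uchl1, Gap43 and Nrn1 were higher in ATC, Stmn2 varied from tumour to tumour within both types, and Nefh, Ina and Tubb3 stayed within narrow ranges. The 2 neurofilament genes that were high in ATC were high in 4 of its 5 tumours, with ATC replicate 4 near the PTC level. Nrn1, Gap43 and Uchl1 were above every PTC tumour in all 5, as was Nefm by a small margin in replicate 4. In the fit across all genes (limma, Benjamini-Hochberg adjusted p under 0.05), 5 of the 9 genes were called higher in ATC and 0 lower, where 11.5% of all genes were called higher and 9.72% lower. In 4 of the 9 the ranges did not overlap, with ATC the higher, as in 9.13% of all genes; in 0 of the 9 was ATC wholly the lower, as in 7.74% of all genes. These counts are given as a description, since the same comparison led to the choice of the genes.

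**Figure D1:**
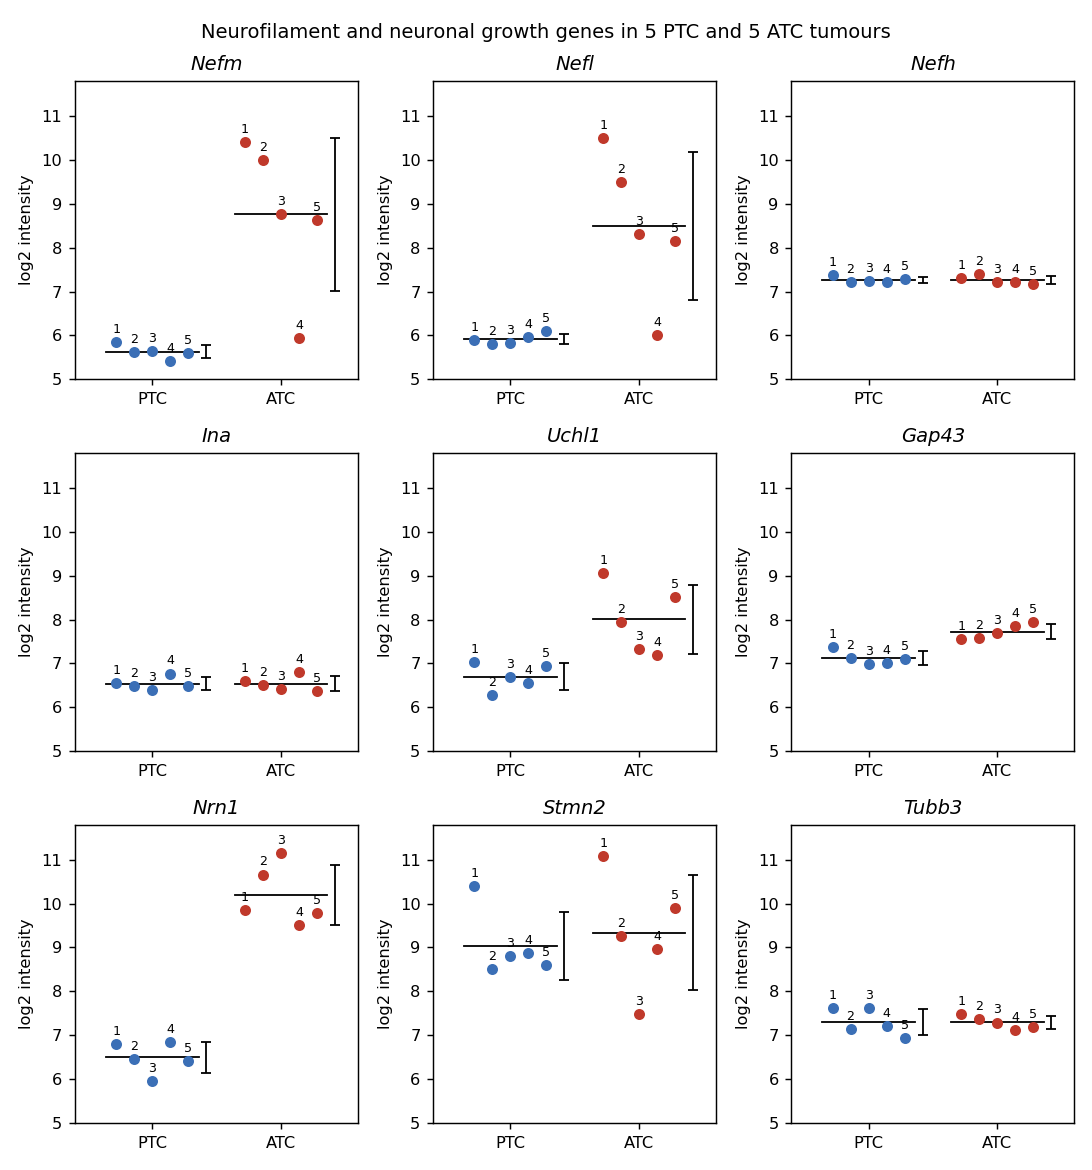
Log2 intensity of each gene in each tumour, with 1 panel per gene; points are tumours numbered by replicate (blue PTC, red ATC), horizontal lines are group means and error bars 1 SD (n = 5). Nefm and Nefl reach 10.42 and 10.51 in ATC replicate 1 and fall to 5.95 and 6.01 in ATC replicate 4, while Nrn1 is at 9.50 or more in every ATC tumour and at 6.85 or less in every PTC tumour.

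RefSeq sequence of the bases just before the annotated start was at hand for 3 of the 9 genes (build GRCm38.p6). These 3 are shown because no window was at hand for the other genes, among them Nefm, Nefl, Gap43 and Nrn1, which were higher in ATC. Uchl1 was higher in ATC whereas Tubb3 and Ina were not. Whether promoter features relate to these differences was not tested. Capitals mark the searched motifs: the left part TCAGCACC and the right part GGACAGC of RE1, the cyclic AMP response element TGACGTCA, the AP-1 site TGANTCA and the E-box CACCTG, each on both strands. The windows are 250 bases long, end at the base before the start, and lie at chr5:66675871-66676120 (Uchl1), chr8:123411303-123411552 (Tubb3) and chr19:47014431-47014680 (Ina), all on the plus strand.
Uchl1: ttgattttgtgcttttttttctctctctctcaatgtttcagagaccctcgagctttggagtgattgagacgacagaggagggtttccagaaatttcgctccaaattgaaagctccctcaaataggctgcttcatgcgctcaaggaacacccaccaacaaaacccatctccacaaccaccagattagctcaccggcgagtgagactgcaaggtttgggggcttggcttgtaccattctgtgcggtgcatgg
Tubb3: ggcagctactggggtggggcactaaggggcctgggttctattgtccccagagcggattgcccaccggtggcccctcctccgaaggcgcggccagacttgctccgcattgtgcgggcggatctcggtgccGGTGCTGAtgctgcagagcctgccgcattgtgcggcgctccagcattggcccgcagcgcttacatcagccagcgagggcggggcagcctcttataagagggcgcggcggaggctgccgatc
Ina: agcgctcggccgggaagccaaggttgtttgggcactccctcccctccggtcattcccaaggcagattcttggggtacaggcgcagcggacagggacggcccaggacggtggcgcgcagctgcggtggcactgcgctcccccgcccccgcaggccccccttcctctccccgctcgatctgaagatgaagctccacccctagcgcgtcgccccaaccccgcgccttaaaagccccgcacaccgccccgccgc
The search found a motif in the Tubb3 window alone, GGTGCTGA, the left part of RE1 on the opposite strand, starting 121 bases before the start; 1.32% of the 32851 promoter windows searched held this part. The right part was in 5.28% of them, the cyclic AMP response element in 1.55%, the AP-1 site in 6.75% and the E-box in 17.2%. The Uchl1 window had a GC content of 48.8% with 7 CpG dinucleotides, against 68.0% with 21 for Tubb3 and 70.8% with 25 for Ina, and the median over all windows was 52.4%.

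Among the filament subunits, Nefm and Nefl were low in all PTC tumours and in 1 ATC tumour, and high in the other ATC tumours. Nefm, the medium subunit, was at 5.85, 5.62, 5.65, 5.42 and 5.59 in PTC replicates 1 to 5 and at 10.42, 10.004, 8.78, 5.95 and 8.64 in ATC replicates 1 to 5. All 5 ATC values lay above the PTC values, but ATC replicate 4 exceeded the highest PTC tumour by a margin that was small beside the distance to the other ATC tumours. On the linear scale ATC replicates 1, 2, 3 and 5 had 27.7, 20.8, 8.88 and 8.08 times the PTC mean, and ATC replicate 4 had 1.25 times. The group means were 5.63 ± 0.15 and 8.76 ± 1.75 (SD, n = 5), a difference of 3.13. Leaving out ATC replicate 4 raised it to 3.83, and leaving out replicate 1 lowered it to 2.72. Of the 19938 genes, 15 had an SD within ATC at least as large as that of Nefm, Nefm included.

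Nefl, the light subunit, followed the same tumours. It was at 5.90, 5.81, 5.82, 5.97 and 6.09 in PTC replicates 1 to 5 and at 10.51, 9.49, 8.32, 6.01 and 8.16 in ATC replicates 1 to 5. ATC replicate 4 lay inside the PTC range, so the groups overlapped, and the other 4 ATC tumours had 24.1, 11.9, 5.28 and 4.74 times the PTC mean. The means were 5.92 ± 0.12 and 8.50 ± 1.69, a difference of 2.58. It came to 3.20 when ATC replicate 4 was left out and to 2.08 when replicate 1 was. The order of the ATC tumours was the same for both genes, with replicate 1 highest, then 2, 3, 5 and 4.

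The heavy subunit and alpha-internexin did not share this pattern. Nefh was at 7.38, 7.22, 7.25, 7.22 and 7.28 in PTC replicates 1 to 5 and at 7.30, 7.41, 7.22, 7.22 and 7.17 in ATC replicates 1 to 5. Ina was at 6.56, 6.49, 6.40, 6.77 and 6.48 in PTC and at 6.59, 6.50, 6.42, 6.80 and 6.36 in ATC. The groups overlapped throughout for both genes. Their differences were -0.01 each, turning positive with quantile normalization or median centring, with 95% intervals of -0.15 to 0.14 for Nefh and -0.22 to 0.21 for Ina. In ATC replicate 1, where Nefm and Nefl were highest, Nefh was 1.02 times and Ina 1.03 times its PTC mean. The other Ina probe set was at 6.10 to 6.29 in PTC and at 5.90 to 6.32 in ATC. Detection calls are not given with the values, so whether Nefh and Ina were above background was not tested.

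**Figure D2:**
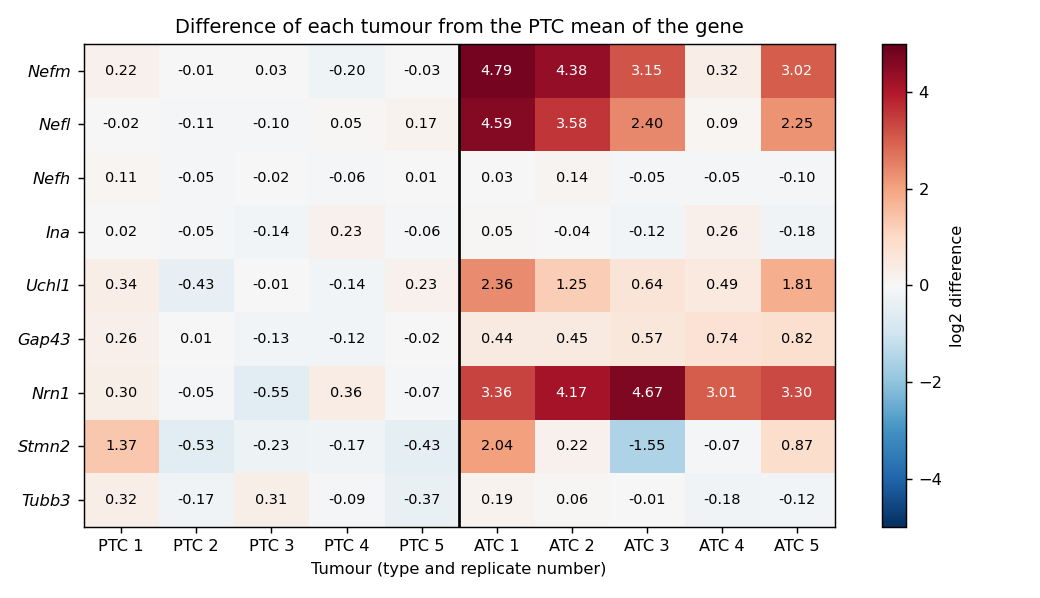
Difference of each tumour (columns) from the PTC mean of the same gene (rows) in log2 units, printed in each cell; the vertical line separates PTC from ATC, and red is higher, blue lower. Nefm and Nefl share 4 red ATC columns and a pale replicate 4 (0.32 and 0.09), Nrn1 is red in all 5, and the rows of Nefh, Ina and Tubb3 stay pale.

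Other intermediate filament genes, from a list of 12 without the subunits above, were measured next to them. Of these 4 rose in ATC, 0 fell and 8 did not pass (limma, adjusted over all genes). Over all genes, 11.5% rose and 9.72% fell. The median difference of the list was 0.09 against -0.02 over all genes. Nes, the nestin gene of progenitor cells, rose by 1.47 from 7.02 ± 0.25 to 8.49 ± 0.37 (adjusted p = 0.000317) and was above PTC in every ATC tumour, replicate 4 included (8.04). Sync, the syncoilin gene of muscle, rose by 0.98 (adjusted p = 0.00137), the nuclear lamin gene Lmna by 0.62 (adjusted p = 0.0149) and Vim by 0.60 (adjusted p = 0.00109). Prph, the peripherin of peripheral neurons that assembles with neurofilaments, averaged 6.73 ± 0.22 over the PTC tumours and 6.78 ± 0.12 over the ATC tumours, 0.05 apart (adjusted p = 0.781).

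Nrn1 had the largest difference of the 9 genes. Neuritin was first described as an activity-induced protein that promotes neurite growth. It was at 6.79, 6.45, 5.95, 6.85 and 6.42 in PTC replicates 1 to 5 and at 9.85, 10.66, 11.16, 9.50 and 9.80 in ATC replicates 1 to 5. The groups were far apart, and ATC replicate 4 was the lowest ATC tumour again but still 8.07 times the PTC mean, against 25.5 times in replicate 3. The means were 6.49 ± 0.36 and 10.20 ± 0.69, a difference of 3.70 (13.0-fold). Of all genes, 2 had a difference at least this large, Nrn1 included. The paralog Nrn1l did not follow, with a difference of -0.07 (adjusted p = 0.528).

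Gap43 differed less but as evenly. This membrane protein of growth cones is a substrate of protein kinase C. It was at 7.38, 7.13, 6.99, 7.0 and 7.10 in PTC replicates 1 to 5 and at 7.56, 7.57, 7.69, 7.86 and 7.94 in ATC replicates 1 to 5. All ATC tumours were above all PTC tumours, with 1.35 to 1.76 times the PTC mean, and ATC replicate 4 was the second highest. The means were 7.12 ± 0.16 and 7.72 ± 0.17, a difference of 0.60. Basp1, a growth cone protein of the same kind, rose by 0.43 (adjusted p = 0.00711), with ATC tumours at 9.16 to 9.45 above PTC tumours at 8.66 to 9.11.

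Uchl1 separated the types with a wide spread in ATC. The enzyme removes ubiquitin from small adducts and is used as a marker of neurons and neuroendocrine cells. It was at 7.04, 6.27, 6.69, 6.56 and 6.93 in PTC replicates 1 to 5 and at 9.06, 7.94, 7.34, 7.19 and 8.51 in ATC replicates 1 to 5. ATC replicate 1 was highest and replicate 4 lowest, as for Nefm and Nefl, but replicate 5 came before replicates 2 and 3. The means were 6.70 ± 0.31 and 8.01 ± 0.79, a difference of 1.31, and single ATC tumours had 1.41 to 5.13 times the PTC mean. Of its relatives, Uchl5, the hydrolase bound to the proteasome, rose by 0.57 (adjusted p = 0.00687). Uchl3 and Bap1 differed by 0.24 (adjusted p = 0.259) and 0.23 (adjusted p = 0.0532). Thus 1 of 3 measured relatives passed in limma (median 0.24), where 11.5% of all genes rose and 9.72% fell.

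Stmn2 and Tubb3, the genes of the microtubule system, were not separated by tumour type. Stmn2 was at 10.40, 8.50, 8.80, 8.86 and 8.60 in PTC replicates 1 to 5 and at 11.08, 9.25, 7.48, 8.97 and 9.91 in ATC replicates 1 to 5. PTC replicate 1 stood above 4 of the 5 ATC tumours and ATC replicate 3 below all PTC tumours. The means were 9.03 ± 0.78 and 9.34 ± 1.32, and the difference of 0.30 had a 95% interval of -0.96 to 1.57 and turned to -0.13 when ATC replicate 1 was left out, and was 0.77 when replicate 3 was. Tubb3 was at 7.62, 7.13, 7.62, 7.21 and 6.94 in PTC and at 7.49, 7.37, 7.29, 7.12 and 7.18 in ATC, with a difference of -0.01, positive with quantile normalization or median centring, and an interval of -0.32 to 0.29. Its ATC tumours had the order of Nefm and Nefl within a range of 0.37. PTC replicate 1, the highest PTC tumour for Stmn2, was also the highest PTC tumour for the parathyroid marker mean (9.64) and for Chga (10.96), and its skeletal muscle marker mean was 8.83. PTC replicate 4, with Stmn2 at 8.86, had means of 9.27 and 8.84 for these lists and Chga at 10.30; the part of such tissue in the Stmn2 values was not tested.

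Of 12 other measured tubulin and stathmin genes 2 rose and 0 fell, where 11.5% of all genes rose and 9.72% fell. The median of the list was 0.02. Tubb6, a beta-tubulin found in many tissues, rose by 1.24 (adjusted p = 0.000465) from 9.62 ± 0.21 to 10.86 ± 0.35, and Tubb5 by 0.59 (adjusted p = 0.0187), which was 0.48 and not past the threshold with quantile normalization once more (adjusted p = 0.0508). Stmn1, the stathmin of dividing cells, was at 11.47 to 11.73 in 4 ATC tumours and at 10.33 in replicate 4. Its difference of 0.27 did not pass (adjusted p = 0.454) and was 0.52 without ATC replicate 4 (adjusted p = 0.00325). Stmn3 and Stmn4, the other neuronal stathmins, differed by -0.10 (adjusted p = 0.422) and -0.02 (adjusted p = 0.866).

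**Figure D3:**
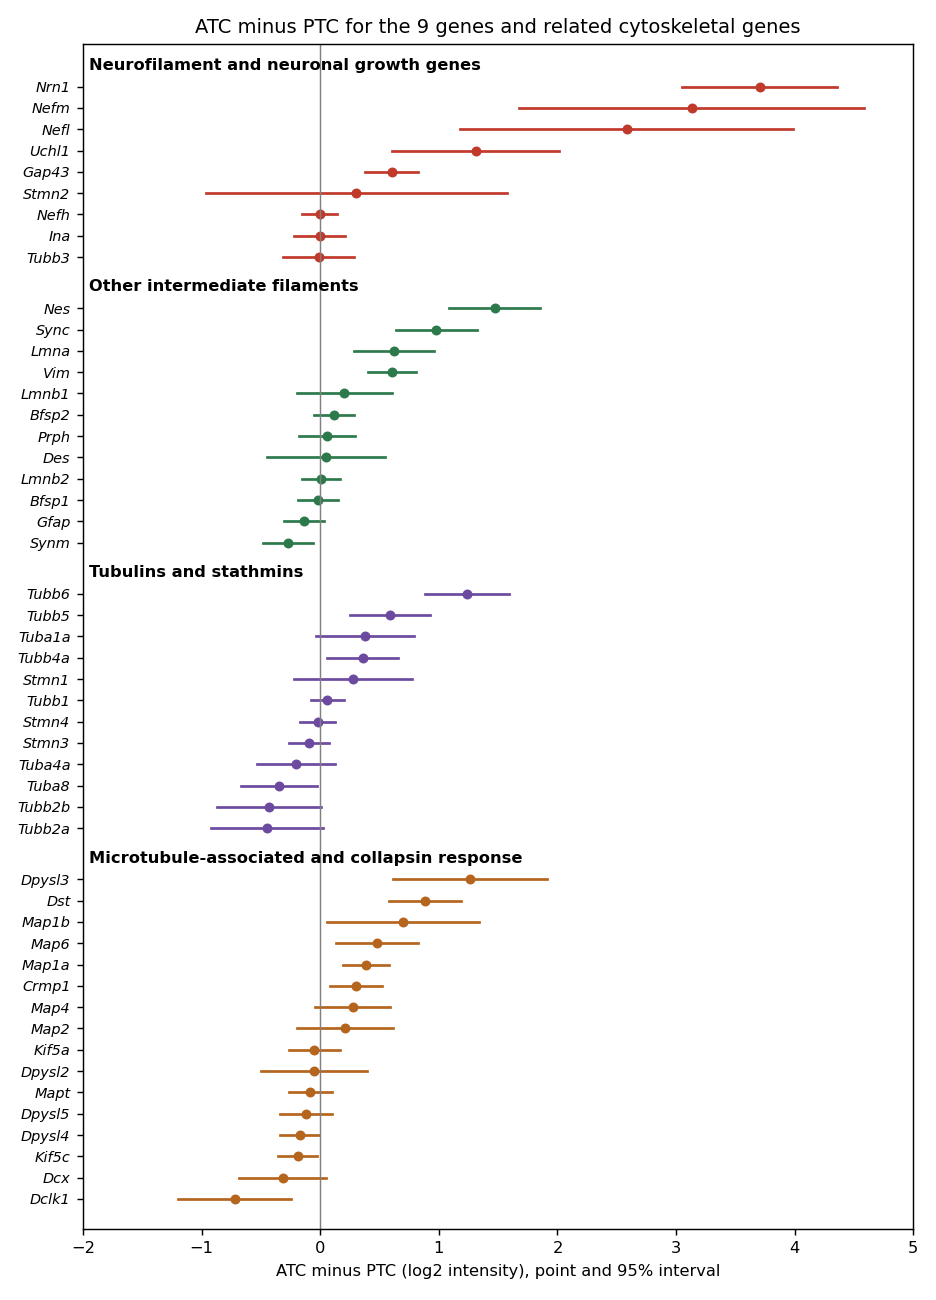
Difference ATC minus PTC in log2 intensity (points) with 95% intervals from the limma fit (lines) for the 9 genes and for 3 lists of related cytoskeletal genes, each ordered by size. Nrn1 (3.70), Nefm (3.13) and Nefl (2.58) lie to the right of all genes of the 3 lists, of which Nes (1.47) is highest, and the interval of Stmn2 is among the widest.

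Microtubule-associated and collapsin response genes bind or steer axonal microtubules. Of 16 measured 3 rose and 1 fell, with a median of 0.08, where 11.5% of all genes rose and 9.72% fell. Dpysl3, a growth cone protein of the collapsin response family, rose by 1.26 (adjusted p = 0.0107), with ATC tumours at 10.08, 9.33, 8.85, 8.39 and 10. As with Uchl1, replicate 1 was highest, replicate 5 next and replicate 4 lowest. Dst, a linker of filaments and microtubules, rose by 0.88 (adjusted p = 0.00125) and Map1a by 0.39 (adjusted p = 0.00983). Dclk1 fell by 0.72 (adjusted p = 0.0357). In 6 refits that each lacked 1 tumour (PTC 2, 3 and 5 and ATC 2, 3 and 4) Dclk1 missed the threshold, at -0.75 to -0.56 with p-values adjusted in limma between 0.0547 and 0.0845. The axonal genes Mapt, Dcx and Map2 differed by -0.09, -0.32 and 0.21 (adjusted p = 0.528, 0.220 and 0.480).

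Of 20 growth cone and nerve injury response genes 3 rose and 4 fell, where 11.5% of all genes rose and 9.72% fell, and the median was 0.03, which was 0.14 without ATC replicate 4. Besides Basp1, the adhesion molecule gene Ncam1 rose by 1.63 (adjusted p = 0.0047) and Arg1, an arginase gene expressed in injured neurons and in macrophages, by 1.54 (adjusted p = 0.00506). Ncam1 was highest in ATC replicate 4 (10.53, against 8.62 to 9.64 in the others), the tumour with the lowest Nefm and Nefl. Chl1, an adhesion molecule of growing axons, fell by 3.25 from 10.96 ± 0.47 to 7.71 ± 1.24 (adjusted p = 0.00117). L1cam fell by 0.52, Npy by 1.07 and Hspb1 by 0.58 (adjusted p = 0.0126, 0.0243 and 0.0291). In 5 refits that each lacked 1 tumour (PTC 3, 4 and 5 and ATC 1 and 3) Npy missed the threshold, at -1.06 to -0.89 with p-values adjusted in limma between 0.0517 and 0.0584. Hspb1 was not called in 5 of the refits lacking a tumour (PTC 1, 4 and 5 and ATC 1 and 4), where it came to -0.56 to -0.45, the adjusted limma p lying between 0.0508 and 0.0715.

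Neurotrophin and GDNF family genes, the growth factors of peripheral neurons and their receptors, were also divided. Of 15 measured 3 rose and 4 fell, with a median of -0.08, where 11.5% of all genes rose and 9.72% fell. The ligand genes Gdnf and Artn rose by 0.54 and 0.46 (adjusted p = 0.00227 and 0.00161), and the receptor gene Gfra2 by 1.20 (adjusted p = 0.00569) with ATC replicate 1 highest at 9.87. Ret, the signalling receptor of that family, fell by 0.82 (adjusted p = 0.013), Gfra1 fell by 0.50 (adjusted p = 0.00498), the sorting receptor gene Sort1 by 0.99 (adjusted p = 0.0201) and the neurotrophin gene Ntf5 by 0.42 (adjusted p = 0.0449). Ntf5 was not called in 7 of the refits lacking a tumour (PTC 1, 3, 4 and 5 and ATC 1, 3 and 5), where it came to -0.45 to -0.30, the adjusted limma p lying between 0.0526 and 0.101. The neurotrophin receptor gene Ngfr differed by -0.16 (adjusted p = 0.194).

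Of 11 genes for Rest and its corepressors 3 rose and 0 fell (limma), where 11.5% of all genes rose and 9.72% fell. In a list of 11 genes, 0 falling is close to that share. Rest itself averaged 9.55 ± 0.18 over the PTC tumours and 9.72 ± 0.20 over the ATC tumours, a difference of 0.18 that did not pass (adjusted p = 0.318). The median of the list was 0.22. The 3 that rose were Hdac2 by 0.36, Rcor3 by 0.35 and Ctdsp1 by 0.31 (adjusted p = 0.0278, 0.0292 and 0.0339). These calls were close to the threshold. Hdac2 was not called in 5 of the refits lacking a tumour (PTC 1, 3 and 5 and ATC 1 and 3), where it came to 0.29 to 0.37, the adjusted limma p lying between 0.050 and 0.0673. In 7 refits that each lacked 1 tumour (PTC 1, 2, 3 and 4 and ATC 1, 3 and 5) Rcor3 missed the threshold, at 0.28 to 0.36 with p-values adjusted in limma between 0.0525 and 0.0708. Ctdsp1 was not called in 6 of the refits lacking a tumour (PTC 2, 3 and 4 and ATC 1, 2 and 5), where it came to 0.27 to 0.32, the adjusted limma p lying between 0.0628 and 0.0863.

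No gene of the neuronal transcription factor, neuron and sympathetic neuron lists rose in ATC (limma), where 11.5% of all genes rose and 9.72% fell. Nefm, Nefl, Uchl1, Gap43 and Nrn1, which were higher in ATC, were not in these lists. The adhesion molecule genes Ncam1 and Nrcam, which rose by 1.63 and 2.935, were not in them either. Of 18 neuronal transcription factor genes 0 passed in limma (1 had an unadjusted p under 0.05), with a median of -0.05, and 0 passed under any alternative fit. Of 11 general neuron markers 0 passed (0 at an unadjusted p under 0.05, and 0 in any alternative fit), and their mean was at 6.57 to 6.75 in PTC and 6.46 to 6.80 in ATC. Snap25, a synaptic vesicle fusion gene, was at 8.01 and 7.95 in ATC replicates 3 and 4 and at 6.23 to 6.95 in the other ATC tumours (difference 0.34, adjusted p = 0.476). Of 8 sympathetic neuron markers 0 rose and 1 fell, with a mean of 6.49 to 6.61 in PTC and 6.37 to 6.57 in ATC. The member that fell was Dbh (-0.23, adjusted p = 0.0366). Dbh was not called in 7 of the refits lacking a tumour (PTC 1, 2, 3, 4 and 5 and ATC 2 and 5), where it came to -0.25 to -0.20, the adjusted limma p lying between 0.0533 and 0.0824. Th, the rate-limiting enzyme of catecholamine synthesis, differed by 0.06 (adjusted p = 0.741).

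No gene of the C cell and neuroendocrine list or the Schwann cell list rose in ATC (limma). Uchl1, used as a neuroendocrine marker too, was not in these lists. Over all genes, 11.5% rose and 9.72% fell, so 0 rising among the 10 measured genes of each list is close to the share over all genes. Of 10 C cell and neuroendocrine markers 4 fell and 0 rose, with a mean of 7.14 to 7.79 in PTC and 6.83 to 7.37 in ATC. Scg5 fell by 1.39, Scg2 by 1.06, Scg3 by 0.91 and Nkx2-2 by 0.53 (adjusted p = 0.0242, 0.0121, 0.00728 and 0.00962). In 3 refits that each lacked 1 tumour (PTC 1 and 5 and ATC 1) Scg5 missed the threshold, at -1.28 to -1.20 with p-values adjusted in limma between 0.0559 and 0.0619. The chromogranin gene Chga differed by -1.32 (adjusted p = 0.215). Of 10 Schwann cell markers 2 fell and 0 rose, with a mean of 7.38 to 7.76 in PTC and 7.10 to 7.28 in ATC. These were Erbb3 (-1.70, adjusted p = 0.000191), which epithelial cells also express, and the myelin gene Mbp (-0.32, adjusted p = 0.0084). The lineage factor gene Sox10 differed by -0.03 (adjusted p = 0.847) and S100b by -0.44 (adjusted p = 0.0624), and S100b passed without PTC replicate 2 or ATC replicate 4 (-0.53 and -0.50, adjusted p = 0.0252 and 0.0417). The median difference was -0.38 for the C cell list and -0.13 for the Schwann cell list, against 0.005 for the neuron and -0.01 for the sympathetic list. An intensity array gives no true 0, so none of these markers can be called absent.

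**Figure D4:**
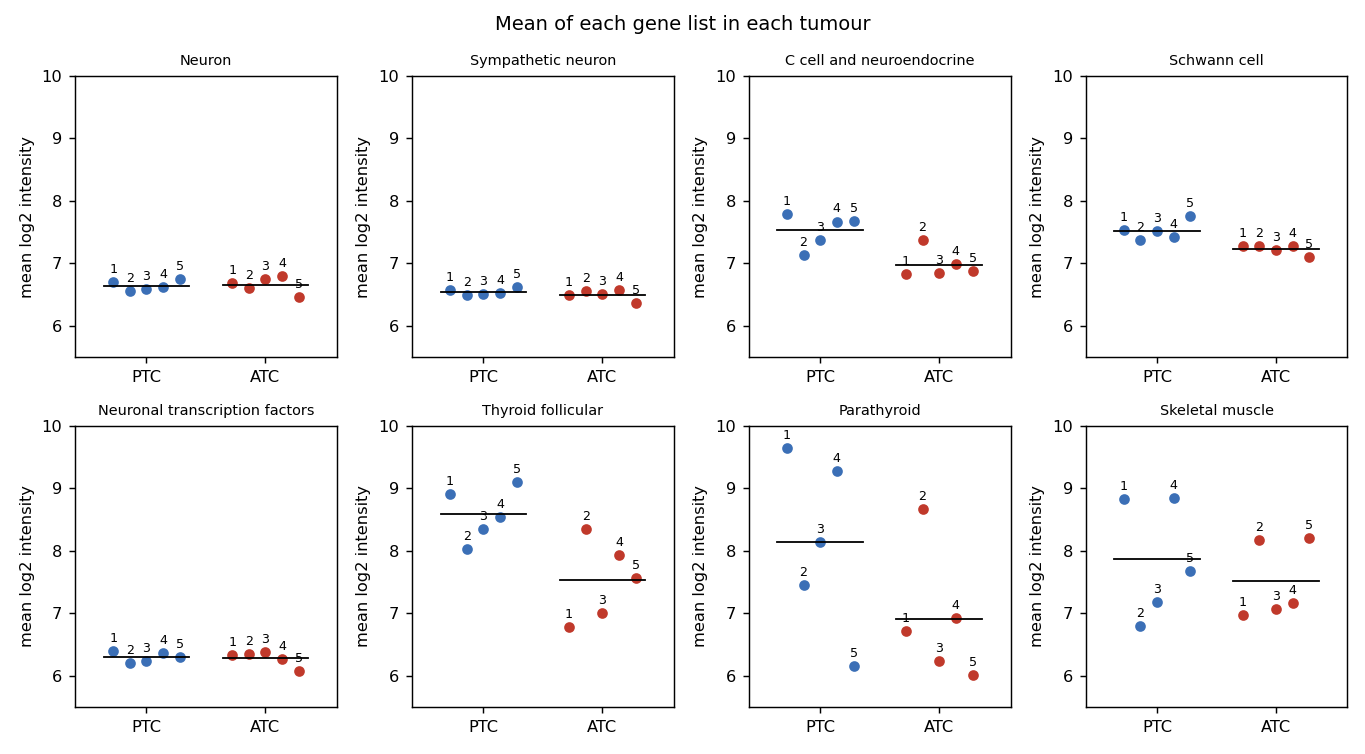
Mean log2 intensity over each list (1 panel per list) in each tumour, with points numbered by replicate (blue PTC, red ATC) and lines at the group means. The neuron list stays between 6.46 and 6.80 in all 10 tumours, while the parathyroid and skeletal muscle lists vary widely within both types.

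Markers of other tissue also varied between tumours, and their part in the neurofilament values was not tested. Over all genes, 11.5% rose in ATC and 9.72% fell (limma). Parathyroid markers (0 of 4 passed in limma, 0 at an unadjusted p under 0.05 and 0 in any alternative fit) had a mean of 6.16 to 9.64 in PTC and 6.01 to 8.67 in ATC, with Pth at 6.49, 11.98, 4.74, 7.33 and 4.73 in ATC replicates 1 to 5 (difference -2.83, adjusted p = 0.283). Skeletal muscle markers (0 of 12 passed in limma, 0 at an unadjusted p under 0.05 and 0 in any alternative fit) had a mean of 6.79 to 8.84 in PTC and 6.97 to 8.21 in ATC. Of 9 thyroid follicular markers 2 fell and 0 rose: Iyd fell by 2.33 and Tshr fell by 1.67 (adjusted p = 0.0299 and 0.0295), with a mean of 8.03 to 9.10 in PTC and 6.78 to 8.34 in ATC. Iyd was not called in 6 of the refits lacking a tumour (PTC 1, 4 and 5 and ATC 1, 3 and 5), where it came to -2.29 to -1.94, the adjusted limma p lying between 0.0594 and 0.0699. In 7 refits that each lacked 1 tumour (PTC 1, 3, 4 and 5 and ATC 1, 3 and 5) Tshr missed the threshold, at -1.72 to -1.43 with p-values adjusted in limma between 0.0516 and 0.0736. The median difference was -0.86 for the parathyroid, -0.20 for the muscle, -0.46 for the follicular and 1.42 for the macrophage list. In ATC replicate 4 the follicular mean was 7.93, between those of replicates 2 (8.34) and 5 (7.56). Of 12 macrophage markers 11 rose in ATC and 0 fell, with a mean of 9.33 to 9.88 in PTC and 10.97 to 11.62 in ATC and ATC replicate 4 at 11.32. The macrophage mean and the 5 genes that were higher in ATC differed in the same direction. In ATC replicate 4 Nefm and Nefl were near the PTC level (5.95 and 6.01). Nrn1, Gap43 and Uchl1 were above every PTC tumour there (9.50, 7.86 and 7.19). The part of macrophages in the differences of these 5 genes was not tested.

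Likeness between genes was measured as the root mean square difference of their values over the 10 tumours after centring each gene on its own mean, for the 5 genes that ranged over at least 2 log2 units. Nefl was the gene most like Nefm of all measured, and Nefm the most like Nefl, at 0.36 log2 units. The next genes were Prl2c5 and Dynap for Nefm (0.82 and 0.86) and Prl2c5 and Tmem74 for Nefl (0.64 and 0.82). Prl2c5, a gene of the prolactin family with close paralogs, was at 10.88, 9.31, 8.20, 7.16 and 9.88 in ATC replicates 1 to 5, so that replicate 4 was again the lowest. Over the 5 ATC tumours alone, Nefl and Nefm again stood nearest to each other (0.27), followed for Nefm by AI506816 (0.53) and Piezo2 (0.81).

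For Uchl1 the nearest genes were Dpysl3 (0.17), Apoe (0.28) and Ddr2 (0.30). For Nrn1 they were Cdh2 (0.46), Bmp2 (0.57) and the neuronal adhesion molecule gene Nrcam (0.65), which was at 6.09 to 6.62 in PTC and at 9.28, 8.73, 10.88, 8.08 and 9.47 in ATC. For Stmn2 they were the actin and myosin binding protein gene Cald1 (0.59), Chp2 (0.61) and Hmcn1 (0.64), none of which passed (adjusted p = 0.271, 0.124 and 0.863), although Cald1 and Chp2 passed without ATC replicate 3 (0.83 and 1.19, adjusted p = 0.0203 and 0.0456). Of the genes nearest to the other 4, the Prl2c5 call (2.14, adjusted p = 0.0211) ended without PTC replicate 3 or ATC replicate 5 (1.99 and 1.94, adjusted p = 0.0542 and 0.0512). Among these 5 genes, Uchl1 and Stmn2 were at 0.79, Nefm and Nrn1 at 1.08, and Nrn1 and Stmn2 farthest at 2.11.

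**Figure D5:**
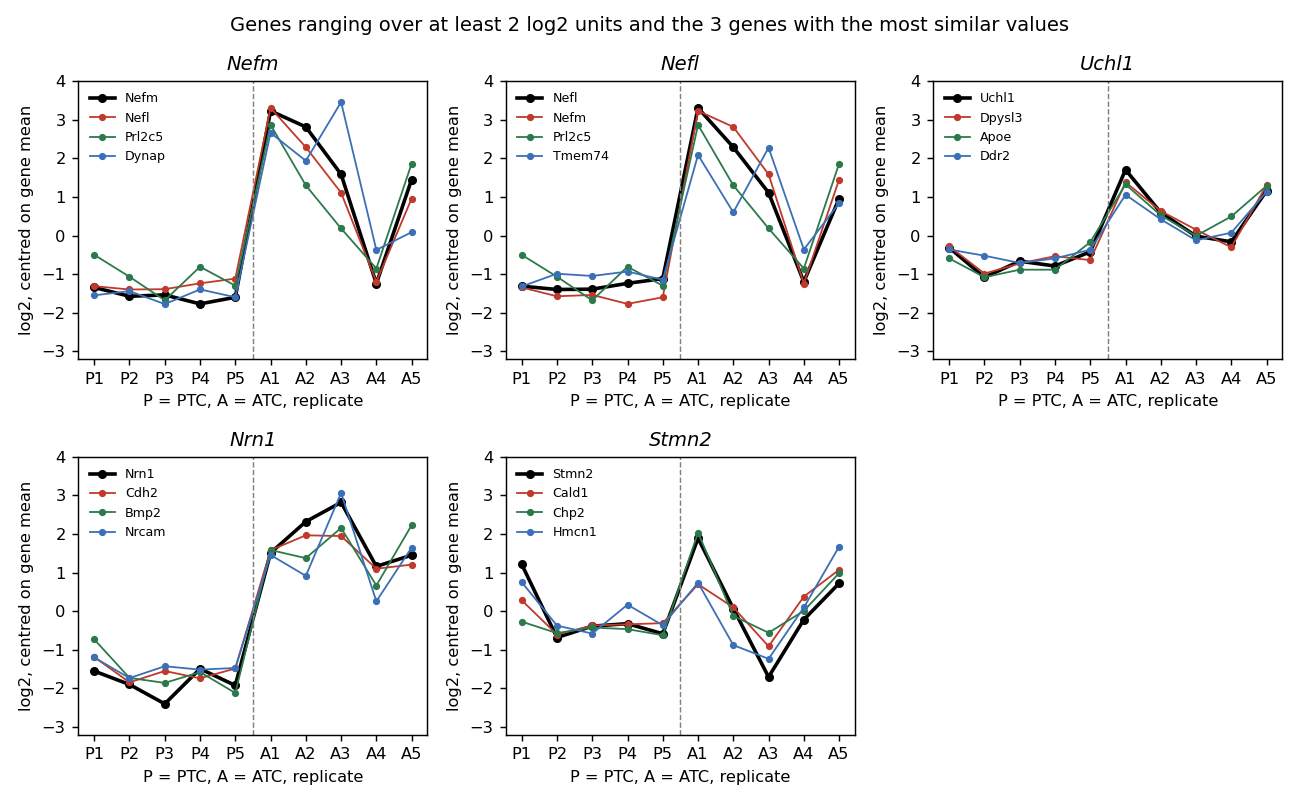
Log2 intensity centred on the gene's mean (y axis) in PTC (P) and ATC (A) replicates 1 to 5 (x axis) for the 5 genes that ranged over at least 2 log2 units (black) and the 3 genes nearest to each (colours); lines join tumours of no order to guide the eye. Nefm and Nefl follow each other at 0.36 log2 units, and Uchl1 and Dpysl3 at 0.17.

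Nefl and Nefm lie next to each other on mouse chromosome 14, with no other measured gene between them in the gene table of GRCm38.p6. The measured genes around the pair did not share their pattern. Kctd9, Gnrh1 and Dock5 on one side differed by -0.21, -0.38 and -0.12 (adjusted p = 0.295, 0.110 and 0.562). On the other side Adam28 fell by 1.40 (adjusted p = 0.000996), Adamdec1 by 1.03 (adjusted p = 0.000464) and Adam7 by 0.49 (adjusted p = 0.0397). In 8 refits that each lacked 1 tumour (PTC 1, 2, 3 and 5 and ATC 1, 2, 3 and 5) Adam7 missed the threshold, at -0.52 to -0.39 with p-values adjusted in limma between 0.0529 and 0.0964.

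Around all 9 genes, 3 of 48 neighbours rose (the nearest 3 measured genes on each side), 13 fell and 32 did not pass, where 11.5% of all genes rose and 9.72% fell; neighbours were not compared with other genes by a test. The 3 that rose were F13a1, beside Nrn1 (3.68, adjusted p = 3.14e-05), Apbb2, beside Uchl1 (0.86, adjusted p = 0.00235), and Ap1b1, beside Nefh (0.65, adjusted p = 0.0129). F13a1 encodes a coagulation factor chain that macrophages also make, and Ly86 and Rreb1 beyond it differed by 0.49 and 0.13 (adjusted p = 0.168 and 0.338). Next to Uchl1, Rbm47 fell by 1.08 and Nsun7 by 0.66 (adjusted p = 0.000645 and 0.00735), and next to Stmn2, Il7 fell by 1.17 and Zc2hc1a by 0.32 (adjusted p = 0.000619 and 0.0124). Zbtb20 and Gm9968 fell by 0.71 and 0.77 beside Gap43 (adjusted p = 0.000642 and 0.000914), Nt5c2 by 0.30 beside Ina (adjusted p = 0.0109) and Spire2 by 0.31 beside Tubb3 (adjusted p = 0.00791). Nipsnap1 and Rasl10a fell by 0.43 and 0.29 beside Nefh (adjusted p = 0.0426 and 0.0204). Nipsnap1 was not called in 8 of the refits lacking a tumour (PTC 1, 2, 3, 4 and 5 and ATC 1, 2 and 4), where it came to -0.46 to -0.32, the adjusted limma p lying between 0.0561 and 0.101. In 3 refits that each lacked 1 tumour (PTC 3 and 4 and ATC 1) Rasl10a missed the threshold, at -0.28 to -0.26 with p-values adjusted in limma between 0.0506 and 0.0521.

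Within ATC, replicate 1 was the highest tumour for 5 of the 9 genes (Nefm, Nefl, Uchl1, Stmn2 and Tubb3), and replicate 4 the lowest for 5 (Nefm, Nefl, Uchl1, Nrn1 and Tubb3). How often these tumours were highest or lowest over all genes was not counted, so the order may not be particular to the 9 genes. For Tubb3 the range was only 0.37 in ATC, against 0.68 in PTC. Replicate 4 was highest for Ina and second highest for Gap43. The SD was larger in ATC than in PTC for 8 of the 9, as it was for 68.4% of all genes, the exception being Tubb3 (0.15 against 0.30). The median SD over all genes was 0.13 in PTC and 0.17 in ATC, and the ATC SDs of Nefm (1.75), Nefl (1.69), Stmn2 (1.32), Uchl1 (0.79) and Nrn1 (0.69) were above it, and those of Nefh (0.09), Tubb3 (0.15), Ina and Gap43 (0.17 each) were at most 0.17.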

How the data were processed

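Total RNA was extracted with Qiazol and, after biotin labelling, put on whole-transcript Affymetrix arrays (per the labels). Affymetrix Power Tools and limma appear in the submitters' processing notes, with no version or role. No source used here gives the background correction, the normalization or the build. The deposited values, 35556 probe sets on 10 arrays, ran from 2.79 to 14.15 and were read from their range as normalized log2 intensities; that scale is an inference. The platform annotation gave 21789 probe sets 1 symbol, 1621 several and 12146 none here. Symbols were updated for the 21698 probe sets whose gene identifier matched the GRCm38.p6 gene table, and each of 19938 genes kept its brightest probe set.

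ATC minus PTC was fitted without covariates with lmFit and eBayes (limma 3.58.1, R 4.3.3), with Benjamini-Hochberg adjustment over all 19938 genes at 0.05. P-values measure only the spread between these tumours, which the labels do not tie to separate mice. The 9 genes, 8 gene lists and 8 marker lists (201 entries, 183 measured; the others are not analysed here) were chosen with earlier results of these data known. The text names the 9 genes, up to 4 genes past the threshold per list, a few set genes, the 3 nearest profiles and the neighbours past the threshold. Artn, Gfra1, Ntf5, L1cam and Hspb1, which passed, the genes nearest within ATC alone, and genes that did not pass other than the set ones were named after their values were seen. The alternatives tried were a block for the replicate number, averaging the probe sets of a gene, leaving out the dimmest 25% of genes, quantile normalization once more, median centring of each array, a trended and robust variance, weights per array, and leaving out each tumour. Python 3.11.15, numpy 2.4.6, pandas 2.3.3 and matplotlib 3.10.9 were also used.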

Additional observations from a re-analysis of the deposited data

Results flagged for a closer look

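The 88 genes checked were the 9 and 79 others, named by the rules above or added to them (Artn, Gfra1, Ntf5, L1cam and Hspb1). Other genes given in the text, such as Nrn1l and AI506816, were not checked. In 176 groups of 5 tumours a tumour standing apart from the others was sought, and 10 groups had one. Chance alone gives about 1 in 20. For Stmn2, PTC replicate 1 was at 10.40 against 8.50 to 8.86 in the other PTC tumours. Stmn1 was at 10.33 in ATC replicate 4 against 11.47 to 11.73. ATC replicate 2 stood above the other ATC tumours for Chga (8.92 against 6.99 to 7.35), Scg3 (6.05 against 5.25 to 5.45) and Adam28 (6.68 against 6.36 to 6.43). PTC replicate 5 stood apart for Ret (8.58 against 7.63 to 7.81), Hdac2 (11.03 against 11.33 to 11.45) and Msr1 (9.07 against 10.16 to 10.39). Adam7 was at 4.93 in ATC replicate 5 against 5.40 to 5.52, and Gm9968 at 7.22 in ATC replicate 3 against 7.59 to 7.75. The low Nefm and Nefl of ATC replicate 4 did not meet this criterion, because the other ATC tumours were themselves spread widely.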

How the results depend on the processing

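The differences of the 9 genes moved by less than 1 SD in the 17 alternative fits. For most of these fits that outcome was fixed in advance. Leaving out 1 of 5 tumours cannot shift a difference by 1 SD. The block, the trended variance and leaving out dim genes do not change a gene's difference at all. The genes were also chosen on these values, so this is no independent support. The differences of Nefh, Ina, Tubb3 and Stmn2, not called, changed sign in some fits. For genes called, the replicate number as a block gave 3762 instead of 4234 (3514 shared), and array weights 4647. Deviations of same-numbered tumours correlated at -0.09 to 0.12, and in 1 of 5 the own number correlated best. This gave no sign of pairing by number across all genes, but cannot exclude a pairing that affects few genes. Leaving out 1 array gave 3253 to 4128 genes called. Leaving out the dimmest 25% of genes moved the thyroid follicular median from -0.459 to -1.014, since 7 members remained, and quantile normalization once more moved the sympathetic neuron median from -0.009 to 0.065 (the cause was not tested). The growth cone and nerve injury median ran from -0.038 to 0.141 when 1 array was left out. Of the 79 other genes of the check above, 15 lost and 5 gained a call when 1 array was left out. The block ended 7 calls (Npy, Dbh, Scg5, Iyd, Tshr, Zc2hc1a and Ntf5) and array weights 4 (Iyd, Tshr, Adam7 and Ntf5). Median centring ended 4 (Dbh, Adam7, Nipsnap1 and Ntf5) and quantile normalization 2 (Tubb5 and Dbh), and leaving out dim genes added 1 (Tg). Over the ATC tumours alone, 1 of the 3 nearest genes was shared for Nefm, 2 for Nefl, 1 for Uchl1, and 0 for Nrn1 and Stmn2. Detection above background is not given with the values, which limits what the dim genes can show.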
